A study of Mus musculus with 12 samples.

Results

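Receptors of the tumor necrosis factor (TNF) superfamily were followed in the cortex of 12 adult female mice of a lupus model. The 10 members (Tnfrsf12a, Fas, Tnfrsf1a, Tnfrsf1b, Tnfrsf21, Tnfrsf19, Ngfr, Tnfrsf4, Tnfrsf25 and Cd40) were chosen by name among the 29608 gene names that the non-control probes carry. They were measured by 12 different probes in 30 spots. MRL/lpr mice carry the lpr loss-of-function mutation of Fas on the autoimmune MRL background. Fn14ko mice lack Fn14, the product of Tnfrsf12a, on that same MRL/lpr background, so both of these groups carry lpr and were bred as littermates. MRL/+ mice, labelled so for the MRL/MpJ strain with an intact Fas, were the controls and came from a different breeder. Each group had 4 mice with no treatment stated. A 2-color Agilent array carried a pair of mice from one group, the odd-numbered replicate with the dye Cy3 and the even-numbered with Cy5. The arrays of one group lay on one slide of their own, so the slide cannot be told apart from the group, nor can breeder and strain for MRL/+.

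These receptors sit in the cell membrane, and most of them bind trimeric ligands of the TNF family, while Ngfr binds neurotrophins. One branch carries a death domain in its cytoplasmic tail (Fas, Tnfrsf1a, Tnfrsf25, Tnfrsf21 and Ngfr) and can recruit adaptors of caspase activation. The other branch (Tnfrsf12a, Tnfrsf1b, Cd40, Tnfrsf4 and Tnfrsf19) has no death domain and generally acts through TRAF adaptors and NF-kB. In the brain they are known from neurons, glia, vessels and immune cells, and in a tissue extract fewer cells of a type and less RNA per cell cannot be told apart.

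A probe on these arrays is a 60-base oligonucleotide, so a signal speaks for that stretch of the transcript alone. The starts of the 8 probes on which the results turn (their first 30 bases, 5′ to 3′) are given here because 2 receptors were read by a pair of probes that moved differently, and because the lpr mutation and the Fn14 deletion could affect one stretch of a transcript and not another. All letters are in lower case since no part is singled out.
Tnfrsf12a: agccttccaaggtgtccaattgccctatct
Fas: gaagaccttccattgatggacagttctttt
Tnfrsf21: atggcatcttgtgactcctagaagtagaca
Ngfr: tccagctggcgactatgagatccagacctc
Tnfrsf1a, probe in 10 spots: agcaatctttgtatcaattatatcacacta
Tnfrsf1a, probe in 1 spot: ttccaagatgaacctggctgggtgcctgga
Tnfrsf19, first probe: atggaatatattttgaatcgcaggattttc
Tnfrsf19, second probe: aagccaaggaggctgggaagacagggaaaa

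In mm9, the build of the array files, the Tnfrsf12a probe lies at chr17:23812746-23812805 on the minus strand and the Fas probe at chr19:34402164-34402223 on the plus strand. The Tnfrsf21 probe lies at chr17:43225326-43225385 (plus) and the Ngfr probe at chr11:95430211-95430270 (minus). The Tnfrsf1a probe in 10 spots lies at chr6:125312376-125312435 and the one in 1 spot at chr6:125311922-125311981, both on the plus strand. The first Tnfrsf19 probe lies at chr14:61582873-61582932 and the second at chr14:61589667-61589726, both on the minus strand. The G and C content of these 8 probes ran from 35 to 55%. The files do not say whether a stretch is coding or untranslated, and the sources used here do not give the deleted part of Tnfrsf12a, so neither the Fas nor the Tnfrsf12a probe is a sure check of the genotype.

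Signals below are background-corrected intensities divided by the median of the same channel, so a value of 1 is the median spot, and values of different probes are not set against each other. Of the 43020 non-control spots, 24255 entered the analysis and gave 17302 genes. Among the members, 9 of 10 were tested. The exception was Tnfrsf1b, which encodes the second TNF receptor. The foreground of its only probe fell to 1.63 times the local background in 1 mouse, below the minimum of 2, and it was well above background in 5 of 12 mice (1 MRL/lpr, 3 Fn14ko and 1 MRL/+).

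The channels of MRL/+ replicates 2 and 4 stood apart from the others. Spots that match no mouse sequence (negative controls) had a median foreground of 209 and 202 there, against 27.4 to 85.2 in the other channels, with local background medians of 34.5 and 32.0, against 21.0 to 33.5. The share of spots marked well above background was 35.0 and 21.2% in these channels and 56.6 to 70.0% in the others. For this reason each member is also given by its brightness over the negative controls, and each difference within the Cy3 mice and within the Cy5 mice. No member probe was below the negative-control median in a Cy3 channel. In both of the MRL/+ Cy5 channels the probes of Fas, Tnfrsf1b, Tnfrsf4, Cd40 and the second Tnfrsf19 probe were below it, at 0.43 to 0.97 times. There the probes of Tnfrsf21 (4.68 and 2.56 times), Tnfrsf12a (2.36 and 1.52) and the first of Tnfrsf19 (4.42 and 2.18) were above it.

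**Figure D1:**
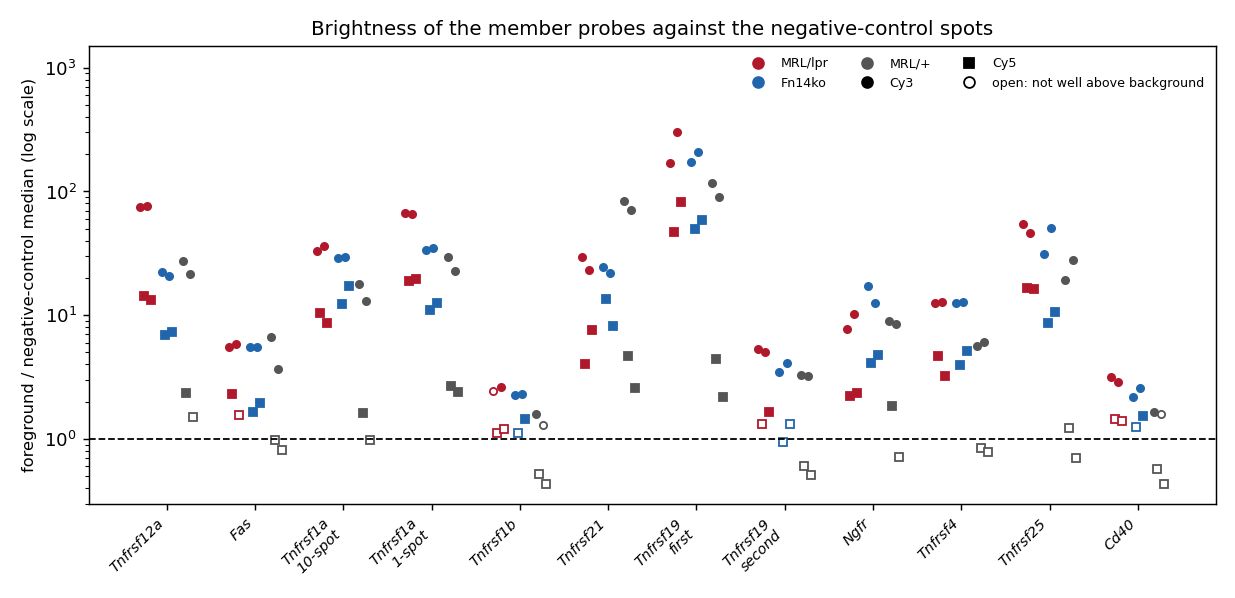
Mean foreground of each member probe divided by the median foreground of the negative-control spots of the same channel (log scale, dashed line at 1), for the 12 mice. Circles are Cy3 and squares Cy5 mice, and open symbols are not marked well above background. The 2 MRL/+ Cy5 mice (gray squares) lay lowest for every probe except that of Tnfrsf21, where MRL/lpr replicate 2 lay between them, and below 1 for Fas, Tnfrsf1b, Tnfrsf4, Cd40 and the second Tnfrsf19 probe.

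Among the tested members, 3 of 9 passed the threshold between MRL/lpr and MRL/+. Tnfrsf21 and Ngfr were lower and Tnfrsf19 was higher in MRL/lpr. Over all genes, 14.4% were called in this comparison (6.03% higher and 8.37% lower), against 33.3% of the 9 members. The groups did not overlap for 4 of 9 members (44.4%) and for 23.9% of all genes. Between Fn14ko and MRL/+ 1 of 9 members was called, Tnfrsf21, which was lower in Fn14ko. The background here was 0.954% of all genes (0.237% higher and 0.717% lower), and 3 of 9 members did not overlap, against 13.5%. Between MRL/lpr and Fn14ko 1 of 9 was called, Tnfrsf12a, where 4.57% of all genes were (2.58% higher and 1.99% lower), and 2 of 9 did not overlap, against 20.3%. The median log2 difference over the members was -0.28, -0.29 and -0.22 in the 3 comparisons in this order, and over all genes -0.10, -0.10 and -0.07. Scaling each channel to its 75th percentile in place of the median moved the median of all genes by -0.23 (MRL/lpr) and -0.25 (Fn14ko) relative to the controls, and the share of all calls that were higher from 41.9 to 23.9% and from 24.8 to 14.9%. With loess and quantile normalization these shares were 47.3 and 54.1%, and the medians moved by 0.11 and 0.14. No called member changed sign under either scaling. The 3 comparisons share mice, so their calls are not independent of each other.

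**Figure D2:**
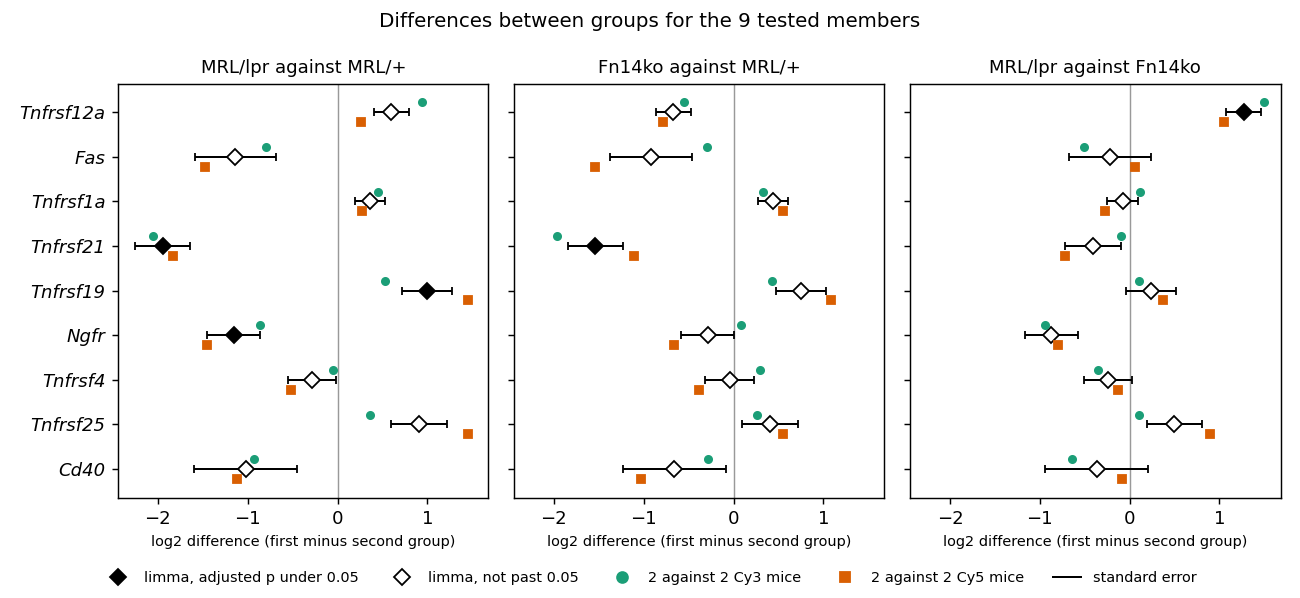
Log2 differences of the 9 tested members (diamonds, limma, with the standard error) in the 3 comparisons, filled where the adjusted p was under 0.05. Green circles and orange squares are the differences within the 2 against 2 Cy3 and Cy5 mice. Tnfrsf21 was about as low within either dye in MRL/lpr (-2.06 and -1.84), while Tnfrsf19 and Tnfrsf25 differed more from MRL/+ within the Cy5 mice.

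Tnfrsf12a, the receptor of TWEAK and the gene removed in Fn14ko, ranked MRL/lpr above MRL/+ above Fn14ko with no overlap between any 2 groups. Over replicates 1 to 4 its signals were 1.86, 1.57, 1.90 and 1.38 in the MRL/lpr mice, 1.02, 1.18, 0.943 and 1.28 in the controls, and 0.739, 0.777, 0.604 and 0.655 in the Fn14ko mice. The group means in this order were 1.68 ± 0.246 (SD, n = 4), 1.11 ± 0.152 and 0.694 ± 0.0786. In the 4 Fn14ko mice the probe was still well above background, at 22.4, 6.96, 20.8 and 7.30 times the negative controls, so the labelled knockout was the lowest group but not at background for this stretch. MRL/lpr exceeded Fn14ko by 1.27 ± 0.19 on the log2 scale (SE, limma adjusted p = 0.00287), and by 1.49 within the Cy3 and 1.05 within the Cy5 mice. The steps from MRL/+ to the neighbours in this order, 0.60 ± 0.19 up to MRL/lpr (limma adjusted p = 0.0555) and -0.67 ± 0.19 down to Fn14ko (limma adjusted p = 0.104), were not past the threshold. The exact permutation p, which ignores that mice share arrays and dyes, was 0.0286 for both steps. Up to MRL/lpr the step was 0.94 within the Cy3 mice and 0.26 within the Cy5 mice, and it was past the threshold without MRL/lpr replicate 4 (0.72, limma adjusted p = 0.0288) or MRL/+ replicate 2 (0.64, adjusted p = 0.0476). Down to Fn14ko it was so without MRL/+ replicate 3 (-0.77, adjusted p = 0.0480). The probe was not well above background in MRL/+ replicate 4.

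The genes whose pattern over the 12 mice lay closest to that of Tnfrsf12a were sought by the root mean square difference of centered log2 signals. They were a transcript with only an Ensembl identifier (0.20), Rorb (0.24), Phf21b (0.24), Luzp2 (0.25) and Irf2 (0.25), where the median over all genes was 0.70. Rorb, a transcription factor known as a marker of cortical layer IV, was 1.06 higher in MRL/lpr than in Fn14ko on the log2 scale. The Ensembl transcript was 1.18 higher, Phf21b 1.11, Luzp2 1.03 and Irf2 0.75. Genes chosen for their likeness to Tnfrsf12a share its difference by selection. This likeness is a description over mice that share arrays and dyes.

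Fas, the death receptor that the lpr mutation disables, was well above background in 9 of 12 mice. Its signals were 0.164, 0.284, 0.171 and 0.191 in MRL/lpr, 0.331, 0.270, 0.171 and 0.183 in Fn14ko, and 0.458, 0.647, 0.186 and 0.643 in MRL/+. MRL/+ replicate 3 lay among the mice that carry lpr, and the 2 highest controls were the Cy5 mice in which the probe was at 0.97 and 0.81 times the negative controls. The log2 differences from MRL/+ were -1.14 ± 0.45 for MRL/lpr (SE, limma adjusted p = 0.100, exact permutation p = 0.0857) and -0.92 ± 0.45 for Fn14ko (limma adjusted p = 0.249, exact permutation p = 0.114), neither past the threshold. Without MRL/+ replicate 3 both would be (-1.51, adjusted p = 0.0142, and -1.29, adjusted p = 0.0471). With the negative-control level subtracted in place of the local background the signs turned (0.33 and 0.27). Between the 2 groups that carry lpr the difference was -0.22 ± 0.45 (limma adjusted p = 0.858).

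Tnfrsf21 showed the largest difference among the members. It encodes death receptor 6, which is known from axon pruning, from oligodendrocyte maturation and, together with Tnfrsf19, from the growth of brain vessels. Its signals were 0.755, 0.466, 0.595 and 0.814 in MRL/lpr replicates 1 to 4. In Fn14ko they were 0.796, 1.40, 0.640 and 0.738, and in MRL/+ they were 2.55, 2.16, 3.05 and 2.24. Every MRL/+ mouse thus lay above every mouse of both groups that carry lpr, and the probe was well above background in all 12. MRL/lpr was lower than MRL/+ by a log2 difference of -1.95 ± 0.31 (SE, limma adjusted p = 0.00211, exact permutation p = 0.0286). That exact p is the smallest that 4 against 4 mice can give. It takes the mice as exchangeable and holds neither the shared arrays nor the dye. Fn14ko was lower by -1.54 ± 0.31 (limma adjusted p = 0.0367, exact permutation p = 0.0286). On the linear scale the mean was 0.658 ± 0.158 (SD, n = 4) in MRL/lpr and 0.894 ± 0.344 in Fn14ko, against 2.50 ± 0.403 in MRL/+. MRL/lpr and Fn14ko overlapped, and their difference of -0.41 ± 0.31 was not past the threshold (limma adjusted p = 0.541).

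The direction held within each dye. MRL/lpr minus MRL/+ was -2.06 in the Cy3 mice and -1.84 in the Cy5 mice, and Fn14ko minus MRL/+ was -1.97 and -1.11. The higher Fn14ko value was that of replicate 2, and without this mouse the difference from MRL/+ was -1.79 (limma adjusted p = 0.0342). Leaving out any 1 mouse kept the MRL/lpr difference between -2.08 and -1.76 and past the threshold. For Fn14ko the difference ran from -1.79 to -1.41, and the call hung on each of 3 mice. It was lost when Fn14ko replicate 3 was left out (-1.42, limma adjusted p = 0.0940), and likewise for Fn14ko replicate 4 (-1.50, with 0.0575) and MRL/+ replicate 4 (-1.65, with 0.222). It stood in 13 of 16 other settings. Oligodendrocyte markers, all 6 of 6 tested, had a summed signal of 38.2 to 59.3 in MRL/lpr, 57.8 to 71.0 in Fn14ko and 56.8 to 66.4 in MRL/+. Of these 6, 2 were called lower in MRL/lpr against MRL/+ (Mbp and Cldn11), with 4 at an unadjusted p under 0.05. In Fn14ko against MRL/+ 0 of 6 were called by limma (0 at an unadjusted p under 0.05). Against Fn14ko 1 of 6 was called lower in MRL/lpr, with 5 at an unadjusted p under 0.05. The summed signals of MRL/+ overlapped those of both MRL/lpr and Fn14ko. The part of these markers in the Tnfrsf21 results of MRL/lpr and Fn14ko was not tested.

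**Figure D3:**
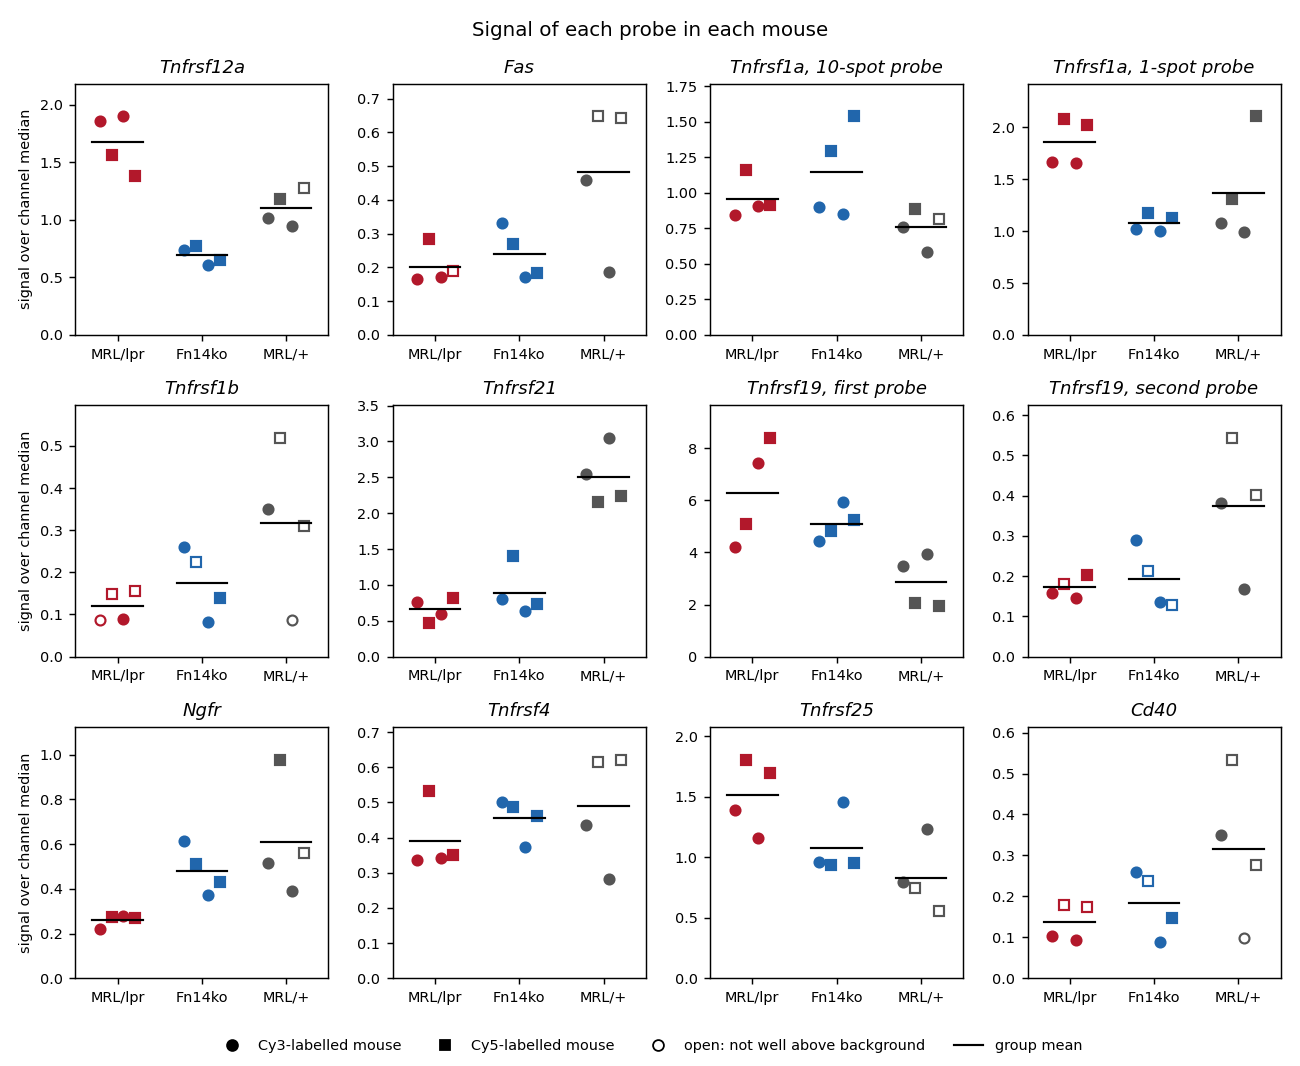
Signal (background-corrected intensity over the channel median, linear axis from 0) of each of the 12 member probes in each mouse, with the group means as bars. Open symbols are not marked well above background. Tnfrsf21 was at 2.16 to 3.05 in MRL/+ and at or below 1.40 in all other mice, and Tnfrsf12a separated all 3 groups.

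Ngfr encodes p75NTR, the low-affinity receptor of the neurotrophins, known in cortex mainly on the axons of basal forebrain cholinergic neurons. Its probe was printed in 10 spots, of which 8 were retained. The signals were 0.221, 0.273, 0.277 and 0.269 in MRL/lpr, 0.613, 0.510, 0.371 and 0.431 in Fn14ko, and 0.517, 0.978, 0.389 and 0.561 in MRL/+. All 4 MRL/lpr mice were below all mice of the other 2 groups, which overlapped. MRL/lpr was lower than MRL/+ by -1.16 ± 0.29 on the log2 scale (SE, limma adjusted p = 0.0221, exact permutation p = 0.0286). Against Fn14ko the difference was -0.87 ± 0.29 and not past the threshold (limma adjusted p = 0.123, exact permutation p = 0.0286). Fn14ko and MRL/+ differed by -0.29 ± 0.29 (limma adjusted p = 0.527).

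Within the Cy3 mice MRL/lpr was -0.86 from MRL/+ and within the Cy5 mice -1.45. In MRL/+ replicate 4, 0 of the 10 Ngfr spots were well above background and their brightness was 0.71 times the negative controls, and without this mouse the difference was -1.13 (limma adjusted p = 0.119). The retained spots of one mouse varied by 4.92 to 25.5% (coefficient of variation). The result rests on leaving out the 2 spots that carry an outlier mark in some channel, since with them the difference from MRL/+ was -0.03 (limma adjusted p = 0.974). It was -0.57 (adjusted p = 0.469) with the negative-control level subtracted, and the call stood in 9 of 15 other settings. Of the 4 basal forebrain cholinergic markers, 2 were tested and 0 called by limma in any comparison (0 at an unadjusted p under 0.05), with summed signals of 0.622 to 1.03 in MRL/lpr, 0.485 to 1.53 in Fn14ko and 0.561 to 1.58 in MRL/+.

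Genes of neurotrophins, which Ngfr binds, were on the arrays as well. Ntf3 encodes neurotrophin 3, a survival and axon growth factor. Its signals were 0.226, 0.303, 0.431 and 0.339 in MRL/lpr, 0.795, 1.08, 0.903 and 1.40 in Fn14ko, and 1.34, 1.30, 1.54 and 1.67 in MRL/+. MRL/lpr was below both other groups with no overlap, while Fn14ko and MRL/+ overlapped. Ntf3 was lower in MRL/lpr by -2.20 ± 0.24 against MRL/+ (SE, limma adjusted p = 0.000369) and by -1.69 ± 0.24 against Fn14ko (limma adjusted p = 0.00206). The difference from MRL/+ was the same within the Cy3 and the Cy5 mice, at -2.20 in each. Fn14ko minus MRL/+ was -0.51 and not past the threshold (limma adjusted p = 0.237). Bdnf, which encodes brain-derived neurotrophic factor, was at 1.78 (mean) in MRL/lpr, 2.02 in Fn14ko and 1.61 in the MRL/+ mice, with no call in any comparison (limma adjusted p = 0.371 to 0.741).

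Lingo1 encodes a membrane protein that forms a receptor complex with p75NTR or Tnfrsf19 at axons and limits their growth and myelination. Its signals were 0.955, 1.17, 0.963 and 1.35 in MRL/lpr, 0.412, 0.473, 0.495 and 0.495 in Fn14ko, and 0.589, 0.791, 0.611 and 1.02 in MRL/+. MRL/lpr was above Fn14ko in every mouse, by 1.23 ± 0.18 on the log2 scale (SE, limma adjusted p = 0.00229). It was 0.58 ± 0.18 above MRL/+ (limma adjusted p = 0.0477), with overlap, and this call was lost whichever of the 8 mice was left out (0.50 to 0.69, adjusted p at or above 0.0618). Its probe was well above background in 2 of the 4 MRL/+ mice and in all others. Rtn4r, the Nogo receptor of the same complex, was not called in any comparison by limma.

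**Figure D4:**
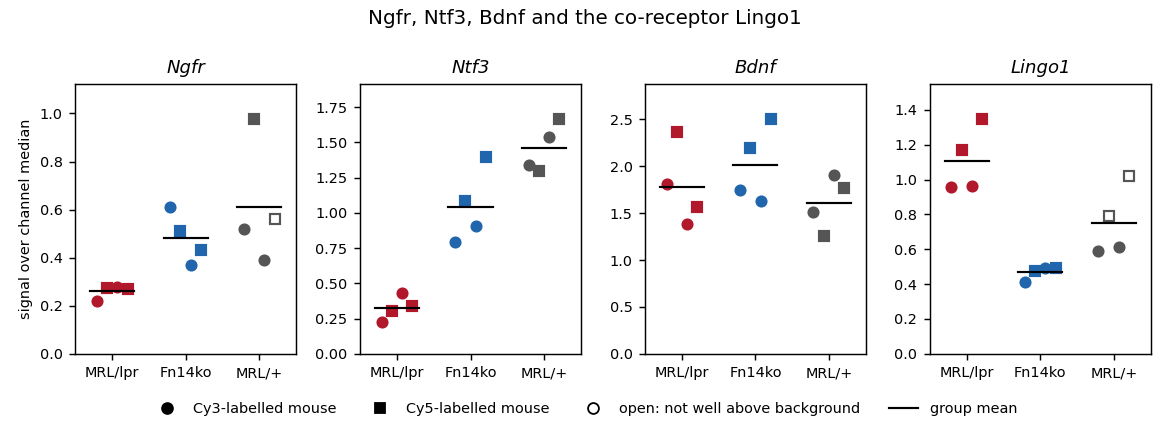
Signal (over the channel median, linear axis from 0) of Ngfr, of the neurotrophin genes Ntf3 and Bdnf, and of Lingo1 in each mouse, with group means as bars. Ngfr and Ntf3 were lowest in MRL/lpr with no overlap, and Lingo1 separated MRL/lpr from Fn14ko.

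Tnfrsf19 encodes TROY, an orphan receptor of the developing nervous system and brain vessels that can take the place of p75NTR in the Nogo receptor complex. Merged over both probes, its signal averaged 3.22 ± 0.987 (SD, n = 4) in MRL/lpr, 2.65 ± 0.289 in Fn14ko and 1.61 ± 0.443 in the MRL/+ mice. MRL/lpr was higher than MRL/+ by 0.99 ± 0.28 on the log2 scale (SE, limma adjusted p = 0.0331) and Fn14ko by 0.75 ± 0.28 (adjusted p = 0.166), both without overlap (exact permutation p = 0.0286 for each). The merged value followed the first probe. That probe read 4.20, 5.08, 7.43 and 8.39 in MRL/lpr, 4.43, 4.81, 5.93 and 5.26 in Fn14ko, and 3.48, 2.05, 3.92 and 1.92 in MRL/+. Tested singly, it was 1.15 higher in MRL/lpr than in MRL/+ (limma adjusted p = 0.0307).

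The second Tnfrsf19 probe had the opposite sign, -1.01 in the same comparison (limma adjusted p = 0.144). It was well above background in 7 of 12 mice and was at 0.61 and 0.51 times the negative controls in the MRL/+ Cy5 mice, which held its highest signals. The size of the merged difference depended on the dye, at 0.53 within the Cy3 mice and 1.45 within the Cy5 mice. Its call was lost without MRL/+ replicate 4 (0.82, adjusted p = 0.167), MRL/+ replicate 2 (0.91, adjusted p = 0.0518), or MRL/lpr replicates 2, 3 or 4 (adjusted p = 0.0551 to 0.0627), and it stood in 10 of 16 other settings.

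Most endothelial markers moved in the same direction as Tnfrsf19. Against MRL/+, 5 of 6 were higher in MRL/lpr and 4 of 6 in Fn14ko. Their summed signal over 6 of 6 markers was 23.2 to 24.8 in MRL/lpr, 16.2 to 23.9 in Fn14ko and 10.5 to 14.8 in MRL/+. By limma, 3 of 6 were called higher in MRL/lpr than in MRL/+ (Flt1 by 1.07, Slco1a4 by 1.05 and Ly6c1 by 1.47 on the log2 scale). In Fn14ko against MRL/+ 2 of 6 were called higher (Slco1a4 and Ly6c1). Their part in the Tnfrsf19 result was not tested.

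Tnfrsf1a, which encodes the main TNF receptor, TNFR1, was read by 2 probes that ranked the groups differently. Over 8 retained spots the first gave 0.844, 1.16, 0.910 and 0.911 in MRL/lpr, 0.897, 1.29, 0.849 and 1.54 in Fn14ko, and 0.758, 0.888, 0.582 and 0.814 in MRL/+. The probe in 1 spot gave 1.67, 2.08, 1.66 and 2.02 in MRL/lpr, 1.02, 1.17, 0.998 and 1.13 in Fn14ko, and 1.07, 1.31, 0.995 and 2.10 in MRL/+, and was well above background in all 12. By this second probe MRL/lpr lay above Fn14ko in every mouse, by 0.78 on the log2 scale (limma adjusted p = 0.0559 over single probes, exact permutation p = 0.0286). By the first the difference was -0.23, with overlap (limma adjusted p = 0.625). The spots of the first probe varied by 7.84 to 29.3% within a mouse. Restricting the analysis to spots well above background in all 12 mice leaves the second probe alone, and then MRL/lpr exceeded Fn14ko by 0.80 (limma adjusted p = 0.0367). The merged gene was not called in any comparison, with log2 differences of 0.36 for MRL/lpr and 0.44 for Fn14ko against MRL/+ (limma adjusted p = 0.152 and 0.180) and -0.08 between the groups that carry lpr (0.868).

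Tnfrsf25 encodes death receptor 3, the receptor of TL1A and a costimulator of T cells. It had signals of 1.39, 1.80, 1.16 and 1.69 in MRL/lpr, 0.956, 0.931, 1.46 and 0.949 in Fn14ko, and 0.792, 0.742, 1.23 and 0.552 in MRL/+. The means fell in this order, with overlap at each step. MRL/lpr minus MRL/+ was 0.91 ± 0.31 on the log2 scale and not past the threshold (SE, limma adjusted p = 0.0661, exact permutation p = 0.0571). It was past it without MRL/+ replicate 3 (1.16, adjusted p = 0.0197) or MRL/lpr replicate 3 (1.09, adjusted p = 0.0350), and in 8 of 15 other settings, where the value ran from 0.36 (Cy3 mice alone) to 2.25 (negative-control level subtracted). The difference was 0.36 within the Cy3 mice and 1.45 within the Cy5 mice, whose MRL/+ values were 1.23 and 0.70 times the negative controls.

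Tnfrsf4 (OX40) and Cd40 are costimulatory receptors of T cells and of B and myeloid cells. Neither was called. Tnfrsf4 had signals of 0.338 to 0.534 in MRL/lpr, 0.373 to 0.500 in Fn14ko and 0.283 to 0.622 in MRL/+, which overlapped throughout, and the log2 differences from MRL/+ were -0.28 and -0.04 (limma adjusted p = 0.452 and 0.924). Cd40 had signals of 0.0930 to 0.179, 0.0897 to 0.259 and 0.0983 to 0.534, and differences of -1.02 and -0.66 (adjusted p = 0.211 and 0.454). The signs of both genes against MRL/+ turned with the negative-control level subtracted (1.68 and 1.86 for Tnfrsf4, with adjusted p of 0.0108 and 0.0251, and 0.09 and 0.02 for Cd40). Cd40 was well above background in 6 of 12 mice, of which 1 was MRL/+. Tnfrsf1b, with its single probe below the foreground minimum, had signals of 0.0861 to 0.156, 0.0813 to 0.260 and 0.0874 to 0.519, and no test is given. For each of these 3 genes the highest MRL/+ value came from a Cy5 mouse and was below the negative-control level. Of the 7 T cell markers 3 were tested and 0 called by limma in any comparison (0 or 1 at an unadjusted p under 0.05), and Cd3g was not well above background in any mouse. Of the 6 B cell markers 1 was tested and 0 called by limma (0 at an unadjusted p under 0.05), and Ms4a1 and Pax5 were not well above background in any mouse. The summed T cell signal was 7.62 to 10.9 in MRL/lpr, 4.62 to 7.36 in Fn14ko and 6.19 to 13.5 in MRL/+.

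The relative expression variability of the members (REV, the coefficient of variation among the 4 mice of a group, pooled over the spots of a gene and widened by a chi-square factor for their number) was 13.2% for Ngfr, 31.4% for Tnfrsf12a and 51.5% for Tnfrsf21 in MRL/lpr. In MRL/+ it was 46.4, 29.6 and 34.6% for these, and it was highest for Cd40, at 123%. Cd40 was also the most variable member in Fn14ko (92.2%). REV holds no dye term, so differences between the Cy3 and Cy5 mice of a group are part of it. In MRL/+ Cd40 was well above background in 1 mouse, and in the Cy5 mice it was at 0.58 and 0.43 times the negative controls.

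Of 20 ligand genes of the family, neurotrophins included, 19 were on the arrays and 8 were tested. Relative to MRL/+, 1 of 8 was called lower in MRL/lpr, Ntf3, and 0 of 8 were called by limma in Fn14ko (1 at an unadjusted p under 0.05). By sign alone, 1 of 8 was higher than MRL/+ in MRL/lpr and 1 of 8 in Fn14ko. Relative to Fn14ko 1 of 8 was called lower in MRL/lpr, Ntf3. The median log2 difference over the 8 was -0.48, -0.47 and -0.07, against -0.10, -0.10 and -0.07 over all genes. Tnfsf12, which encodes TWEAK, the ligand of Fn14, had signals of 0.400 to 0.670 in MRL/lpr, 0.401 to 0.634 in Fn14ko and 0.666 to 0.756 in MRL/+. Its difference from MRL/+ was -0.39 in MRL/lpr and -0.43 in Fn14ko (limma adjusted p = 0.209 and 0.261). Lta (lymphotoxin alpha) and Tnfsf15 (TL1A) were at -1.09 and -0.88 in MRL/lpr against MRL/+ (adjusted p = 0.168 and 0.185). The MRL/+ Cy5 mice held the highest signals of both, yet neither was well above background there. They were at 0.53 and 0.55 (Lta) and 0.90 and 0.60 (Tnfsf15) times the negative controls. Tnfsf12 was not well above background in these mice either, at 1.27 and 0.85 times. The genes of TNF, Fas ligand, OX40 ligand and CD40 ligand (Tnf, Fasl, Tnfsf4 and Cd40lg) were below the filter, with a spot well above background in 5, 2, 1 and 2 of 12 mice. For Tnf these were 4 MRL/lpr, 1 Fn14ko and 0 MRL/+ mice. In the same order of groups they were 2, 0 and 0 for Fasl, 1, 0 and 0 for Tnfsf4, and 0, 0 and 2 for Cd40lg. The counts were not tested.

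Of 18 further receptors of the family, 9 were tested and 0 were called by limma in any comparison (3, 2 and 4 at an unadjusted p under 0.05). Their median log2 differences were -0.23, -0.39 and -0.19, against -0.10, -0.10 and -0.07 over all genes. Of 27 signalling genes (adaptors, kinases and co-receptors) 26 were tested. Relative to MRL/+, 2 of 26 were called higher in MRL/lpr and 3 of 26 lower. The 2 called higher were Chuk by 0.89 (IKK alpha, a kinase of NF-kB activation, limma adjusted p = 0.0127) and Lingo1. The 3 called lower were Ikbkg (NEMO, the regulatory subunit of the same kinase complex) by 1.23, Traf1 by 1.32 and Traf6 by 0.94. Their limma adjusted p was 0.0302, 0.0486 and 0.0447. Ikbkg, Traf1 and Traf6 were not well above background in either MRL/+ Cy5 mouse, at 0.88 to 1.39 times the negative controls, and without MRL/+ replicate 4 they were at -1.04, -1.04 and -0.73 (limma adjusted p = 0.166, 0.247 and 0.233). Their calls stood in 3 (Ikbkg), 1 (Traf1) and 2 (Traf6) of the 8 fits that left out 1 mouse, and were lost whichever MRL/lpr mouse was left out (adjusted p = 0.0512 to 0.0939). With marked spots kept, Traf6 was at 0.21. Chuk was at 0.91 without MRL/+ replicate 4 and no longer called (limma adjusted p = 0.0517), and its call stood whichever of the other 7 mice of these groups was left out. In Fn14ko against MRL/+ 0 of 26 were called by limma (7 at an unadjusted p under 0.05). Against Fn14ko 1 of 26 was called higher in MRL/lpr, Lingo1.

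Of 18 genes known as targets of NF-kB, 14 were tested. Against MRL/+, 0 of 14 were called by limma in either MRL/lpr or Fn14ko (2 and 3 at an unadjusted p under 0.05). The median log2 differences were -0.45 and -0.01, against -0.10 and -0.10 over all genes. Several targets, Nfkb2, Birc3, Ccl2, Icam1 and Mmp9 among them, were below the negative controls in both MRL/+ Cy5 mice. These mice held the highest MRL/+ signals of those genes. Nfkbia and Relb were well above background there. Against Fn14ko 1 of 14 was called, C3, the central complement component, which was lower in MRL/lpr by -2.30 ± 0.53 (SE, limma adjusted p = 0.0266). C3 was at 0.201 to 0.429 in MRL/lpr and at 0.590 to 5.70 in Fn14ko, where the highest value was replicate 4. That mouse also had the highest summed signal of the 6 meningeal fibroblast markers, 25.2, against 6.56 to 17.0 in all other mice, and without it the difference was -1.76 (limma adjusted p = 0.0116). The call was lost without Fn14ko replicate 2 (-2.28, adjusted p = 0.0968) or MRL/lpr replicate 1 (-2.28, adjusted p = 0.0611). The summed choroid plexus markers were 63.6, 121, 13.4 and 181 in Fn14ko replicates 1 to 4, where C3 was at 0.590, 1.77, 0.766 and 5.70, and 6.68 to 99.2 in MRL/lpr. Their highest sum was 264 in MRL/+ replicate 4, where C3 was at 0.593 and not well above background. The part of either marker list in the C3 result was not tested.

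Over the other markers, the 7 of cortical excitatory neurons were well above background in 10 to 12 mice each. Against MRL/+, Slc17a7 (-1.08) and Neurod6 (-1.70) fell and Tbr1 (1.53) and Cux2 (1.57) rose in MRL/lpr on the log2 scale. Against Fn14ko, the comparison in which Tnfrsf12a was called, Neurod6 (-2.11, limma adjusted p = 0.00766) fell and Cux2 (1.73, adjusted p = 0.0121) rose in MRL/lpr, and 6 of these 7 markers were at an unadjusted p under 0.05. The microglial sum was 18.4 to 28.0 in MRL/lpr, 16.5 to 18.8 in Fn14ko and 14.4 to 18.9 in MRL/+. Against MRL/+, 6 of 7 microglial markers were higher in MRL/lpr, with 1 called (Aif1), and 7 of 7 in Fn14ko, with 0 called. Hemoglobin and other blood genes summed to 91.3 to 230 in MRL/lpr, 32.9 to 95.2 in Fn14ko and 24.3 to 46.8 in the MRL/+ mice. Choroid plexus sums were 17.0 to 264 in the MRL/+ mice. Of these 6 markers 1, Clic6, was called, and it was lower in MRL/lpr than in Fn14ko by -2.96 and than in MRL/+ by -2.51 (limma adjusted p = 0.0494 and 0.0486), with overlap. The median over the 6 was -2.17 and -1.56, with 4 and 2 at an unadjusted p under 0.05. The sum of striatal markers was 99.3 in Fn14ko replicate 1 and 9.27 to 18.8 in the other Fn14ko mice. It was 12.9 to 22.7 in MRL/lpr and 7.97 to 10.7 in MRL/+, with no overlap between these 2 groups. Without Fn14ko replicate 1 Tnfrsf21 was -1.44 in Fn14ko against MRL/+ (limma adjusted p = 0.0364), and Tnfrsf12a was 1.29 in MRL/lpr against Fn14ko (adjusted p = 0.00690). Leaving out 1 mouse does not test the part of the striatal list. The part of this and the other lists in the members' results was not tested.

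**Figure D5:**
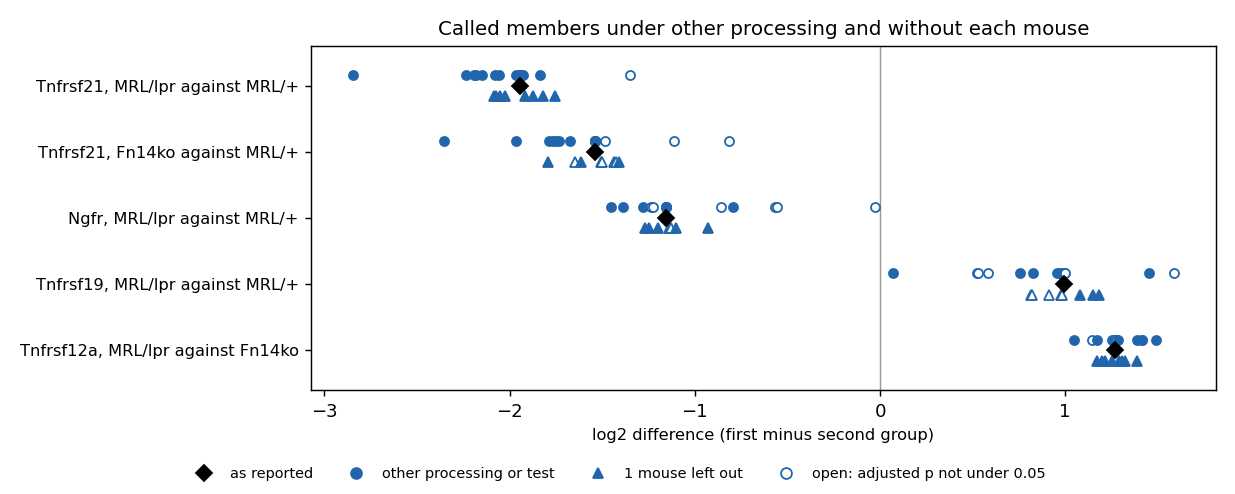
Log2 differences of the 5 called member results under other processing or tests (circles) and with 1 mouse left out (triangles), beside the reported value (diamond). Open symbols have an adjusted p not under 0.05. All 5 kept their sign in every setting, though Tnfrsf19 with each probe taken singly did so only as the mean of its 2 probes (0.07). Ngfr was at -0.03, close to no difference, with marked spots kept. Tnfrsf21 in MRL/lpr kept its call in all settings but the one without the filter on dim spots (-1.35).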

How the data were processed

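Total RNA of the cortex of 12 mice was labelled with Cy3 or Cy5 and hybridized, 2 mice of a group per array, to 6 Agilent arrays. The deposited intensities are the mean foreground and median local background of each spot and channel, which the authors read with Agilent Feature Extraction (12.1.0.3 per the file headers), with its outlier and well-above-background marks and its processed intensity, which served as an alternative. From these, normexp correction (offset 50) was applied to the 43020 non-control spots. Spots marked in any sample (1952) or under 2 times the local background in any sample (17781) were left out, which left 24255. Signals were divided by the channel median of these spots and averaged per gene name, giving 17302 genes. For arrays, the number of arrays limits the precision.

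Groups were compared on the log2 scale with limma (3.58.1 in R 4.3.3), with dye as a term and array as a random block (correlation 0.32), over all 12 mice, 2-sided, and p-values were adjusted over the 17302 genes by Benjamini-Hochberg, with a threshold of 0.05. Exact permutation tests ran over the 70 splits of 8 mice. They took the mice as exchangeable, without a term for array or dye. Tables were handled with the data.table package (1.17.8) and pandas 2.3.3 and drawn with matplotlib 3.10.9. The fit was tested on simulated data with normal noise of the same spread in every channel. This does not test it for channels like those of MRL/+ replicates 2 and 4. Members and gene lists were chosen with earlier results of these data known. Named were all members and probes, the ligands of the members whatever their values (1 is not reported here), in every other list the genes past the threshold (at most 6 by size), and the 5 profiles nearest to Tnfrsf12a. Ntf3 is named by the same threshold. Names were used as the files give them. Alternatives covered background correction, scaling, filters, probe merging, blocks, single dyes, the methods' t-test and leaving out each mouse. The p-values of that t-test were adjusted by Benjamini-Hochberg, and the study's fold cut-off was not applied. Differences within a dye and the alternatives for list genes were added after seeing the data.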

Additional observations from a re-analysis of the deposited data

Results flagged for a closer look

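In 3 of the 27 groups of 4 mice examined for the tested members, 1 mouse lay far from the other 3 relative to the range of its group; chance flags about 1 in 20 such groups. Ngfr in MRL/lpr replicate 1 had a signal of 0.221, with the other mice at 0.269 to 0.277. Tnfrsf25 in Fn14ko replicate 3 had a signal of 1.46, with the others at 0.931 to 0.956. Tnfrsf4 in MRL/lpr replicate 2 had a signal of 0.534, with the others at 0.338 to 0.350.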

How the results depend on the processing

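The 5 called member results kept their sign in all alternatives run. With each probe taken singly this holds for Tnfrsf19 only as the mean of its 2 probes (0.07). Its second probe alone was at -1.01 in MRL/lpr against MRL/+. Ngfr in that comparison was at -0.03 with marked spots kept (limma adjusted p = 0.974), which is close to no difference. In MRL/lpr against MRL/+ the number of members called was 7 with the local background subtracted, 6 with loess and quantile normalization, 0 with no filter on dim spots, 5 without the dye term, 6 without the array block, 5 in the Cy5 mice alone, 1 by the methods' t-test, and 1 to 5 with 1 mouse left out (1 without MRL/+ replicate 4 and 5 without MRL/+ replicate 3). In Fn14ko against MRL/+ it was 5, 3, 0, 1, 2, 3 and 0 in the same order, 3 with the negative-control level subtracted, and 0 to 3 with 1 mouse left out (0 without Fn14ko replicate 3 or 4 or MRL/+ replicate 4, and 3 without MRL/+ replicate 3). In MRL/lpr against Fn14ko it was 2 with the local background subtracted, with loess and quantile normalization or without the array block, 0 with no filter on dim spots or by the t-test, and 1 whichever mouse was left out. Over all genes 2492, 165 and 790 were called in these comparisons, with ranges of 22 to 6287, 0 to 4787 and 32 to 2850 over the alternatives, and 781 to 5551, 8 to 2164 and 385 to 868 with 1 mouse left out. The cause was not tested. The t-test here was the methods' unequal-variance test with Benjamini-Hochberg adjustment and without the study's gene-specific fold cut-off. The study's own criterion, with unadjusted p-values, was not run.

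Some members that were not called, and 1 list gene that was, changed sign. With the negative-control level subtracted the log2 difference was 0.022 (Fn14ko against MRL/+), 0.066 (MRL/lpr against Fn14ko) and 0.088 (MRL/lpr against MRL/+) for Cd40, 0.27, 0.062 and 0.33 for Fas, 0.57 for Ngfr in Fn14ko against MRL/+, and 1.86 and 1.68 for Tnfrsf4 against MRL/+ in Fn14ko and MRL/lpr. With Agilent's processed signal it was 0.00326 for Cd40 and 0.13 for Fas in MRL/lpr against Fn14ko, and 1.40 and 1.23 for Tnfrsf4 in Fn14ko and MRL/lpr against MRL/+. With the local background subtracted Tnfrsf4 was at 0.25 and 0.073. Loess and quantile normalization gave 0.57 and 0.48 for Cd40 and 0.49 and 0.23 for Tnfrsf4 in Fn14ko and MRL/lpr against MRL/+. Without the filter on dim spots the values against MRL/+ were 0.067 for Cd40, 0.44 for Ngfr, 0.056 for Tnfrsf12a and 0.68 for Tnfrsf4 in Fn14ko, and 0.31 for Tnfrsf4 in MRL/lpr. With marked spots kept they were 0.29 for Ngfr and 0.066 for Tnfrsf1a in MRL/lpr against Fn14ko, and 0.21 for Traf6 in MRL/lpr against MRL/+. The Cy3 mice alone gave, for Fn14ko against MRL/+, 0.087 for Ngfr and 0.30 for Tnfrsf4, Tnfrsf19 was at -0.0097 as the mean of single probes and Tnfrsf1a at -0.51 over spots well above background in all mice. In MRL/lpr against Fn14ko Tnfrsf1a was at 0.80 over those spots, 0.28 by single probes and 0.12 in the Cy3 mice, and Fas at 0.065 in the Cy5 mice. With 1 mouse left out Fas and Tnfrsf1a ranged from -0.41 to 0.055 and from -0.15 to 0.019 in that comparison, and Tnfrsf4 from -0.24 to 0.12 in Fn14ko against MRL/+.

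Replicate numbers were not taken to pair the mice, since nothing in the labels ties them and not every same-numbered pair correlated above 0.1. The correlations of their deviations ran from -0.13 to 0.72 over 12 pairs, and 6, 4 and 3 of 8 mice were closest to their own number. Number and dye go together, and with the dye removed the correlations were -0.10 to 0.01 in MRL/lpr against MRL/+, -0.28 to 0.48 in Fn14ko against MRL/+ and -0.08 to 0.10 in MRL/lpr against Fn14ko. With the replicate block 6, 2 and 1 members were called in the same order of comparisons. Signal over the negative controls was low for the dim members in the MRL/+ Cy5 mice and in some others, such as Tnfrsf1b (1.12 and 1.20 times) and Cd40 (1.45 and 1.40) in the MRL/lpr Cy5 mice.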
